A study of Mus musculus with 6 samples.

Results

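The 8 genes described here encode the suppressors of cytokine signalling, Socs1 to Socs7 and Cish. They were taken by gene symbol, and the family was chosen with earlier results of these data known. A probe set, the group of probes that reports 1 transcript, counted where its only annotated gene symbol was a member. All 8 genes were found on the array among 22180 genes tested, with 11 probe sets among 41345. Where a gene had 2 probe sets, the one with the higher mean over the 6 arrays was tested.

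Expression was measured on whole-transcript arrays in Raw 264.7 cells, a transformed line of mouse monocytes and macrophages, so the groups stand for 1 line and not for primary cells. Treated cells received IL-33, an alarmin cytokine of the IL-1 family, at 50 ng/ml, and 3 arrays carry that label. The other 3 arrays are labelled PBS, the same treatment without the cytokine. Both groups were expanded in DMEM with 10% FBS, starved, and then kept in DMEM with 2% FBS, and no source used here gives the length of treatment. The labels do not say whether samples of a group were separate cultures. The p-values therefore weigh differences against a spread that may be technical. The sample titles set the groups. The array names inside the sample descriptions carry the letters IL on arrays titled PBS and the letter P on arrays titled IL-33, so every sign below would turn if the titles were the ones in error.

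SOCS proteins are the classic feedback brake of cytokine signalling. A cytokine receptor activates Janus kinases (JAKs), these phosphorylate STAT transcription factors, and STATs induce SOCS genes, whose products bind the receptor or the kinase through an SH2 domain and recruit an elongin and cullin ubiquitin ligase through the SOCS box. In macrophages SOCS1 limits interferon signalling and SOCS3 limits signalling through the gp130 receptor chain of IL-6. The IL-33 receptor itself belongs to the IL-1 receptor family, whose main signalling adaptor is MyD88.

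Promoter stretches are shown first because STAT and interferon-regulatory factors are known to induce several of these genes. RefSeq promoter windows of GRCm38.p6, 250 bases before to 50 after a gene's start, were at hand for 4 of the 8 genes, Socs1, Socs3, Socs4 and Cish. They were searched on both strands for TTCNNNGAA, the core of a STAT site, for the form of it with 1 more base in the middle, and for a pair of GAAA separated by any 2 bases, the core of an interferon-response element. The stretches with a match follow, 5′ to 3′ on the gene's own strand, with matched bases in capitals.
Socs1: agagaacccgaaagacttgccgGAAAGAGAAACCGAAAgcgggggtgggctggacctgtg
Socs3: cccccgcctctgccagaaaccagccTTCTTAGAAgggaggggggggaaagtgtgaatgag
Cish: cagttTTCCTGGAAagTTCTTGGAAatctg
The Socs1 stretch lies at chr16:10785582-10785641 on the minus strand. It holds 2 overlapping matches to the GAAA pair at positions -83 to -68 from the gene's start. Of 32851 promoter windows 3.44% hold this motif at least once and 0.23% hold it 2 or more times. The Socs3 stretch lies at chr11:117969486-117969545 on the minus strand with 1 TTCNNNGAA match at positions -154 to -146, which 8.3% of windows hold. The Cish stretch lies at chr9:107296654-107296683 on the plus strand. It holds 2 TTCNNNGAA matches side by side at positions 1 to 20, just after the annotated start. Of all windows 8.3% hold this motif at least once and 0.46% hold it 2 or more times. The Socs4 window held no match to the 3 motifs, and the wider STAT form, present in 6.95% of windows, matched in none of the 4. These are matches of letters, not measured binding.

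Across the family the arrays labelled IL-33 and PBS differed little. The 8 log2 differences, IL-33 minus PBS, ran from -0.16 for Socs3 to 0.20 for Socs6, with a median of 0.035 against -0.0051 over all genes tested. None of the 8 genes passed an adjusted p of 0.05 (limma, Benjamini-Hochberg over all genes), where 0.591% of all genes passed, with 61 higher (0.275%) and 70 lower (0.316%). At an unadjusted p under 0.05, 2 members passed, Socs6 and Socs3, against 13.2% of all genes. The groups did not overlap in 3 members, against 20.3% of all genes: for Socs4 and Socs6 every IL-33 array lay above every PBS array, as for 10.3% of all genes, and for Socs3 every one lay below, as for 10.1%. The median size of a difference without its sign was 0.070 over the members and 0.073 over all genes. Total RNA of a culture was measured, so fewer cells expressing a gene and less RNA per cell cannot be told apart.

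**Figure D1:**
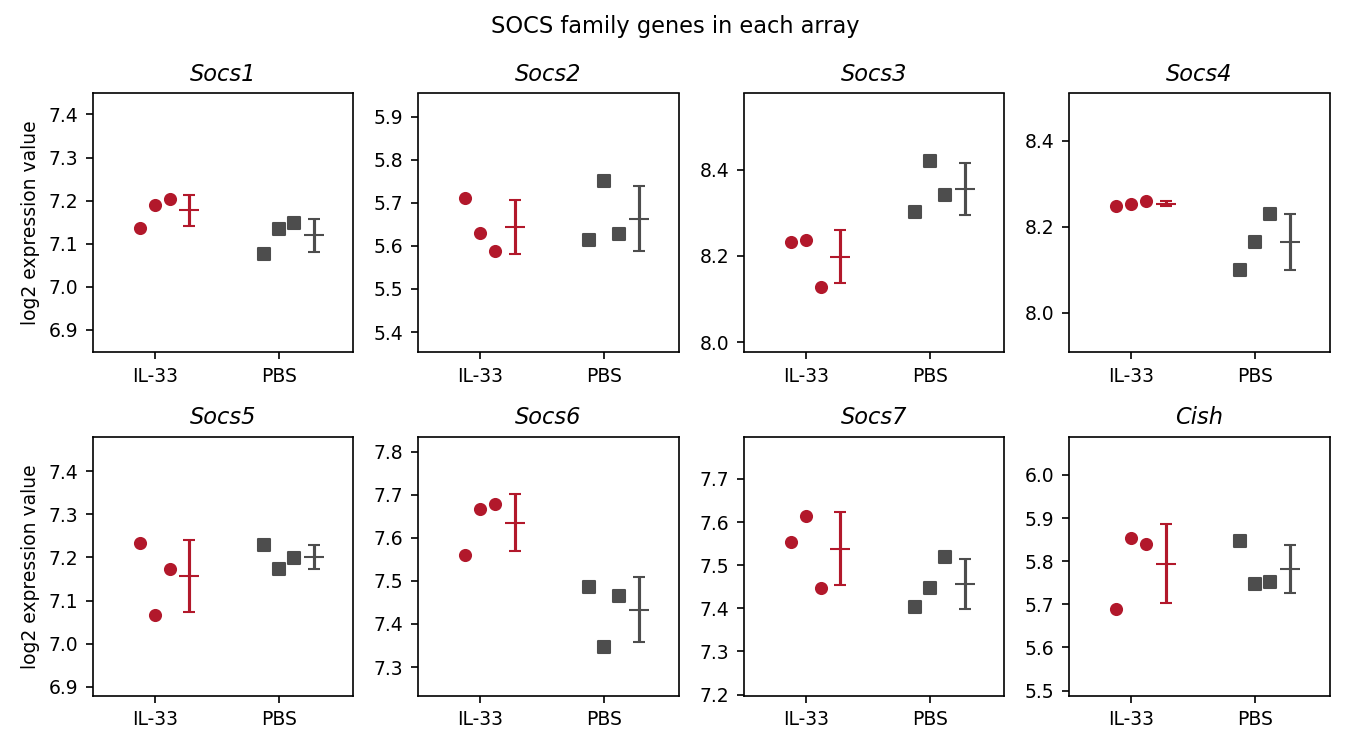
Log2 expression value of each SOCS family gene in every array, IL-33 (red circles) left of PBS (grey squares), with the group mean and SD (n = 3 arrays) as a bar beside the points. Every panel spans the same height on the log2 axis, but heights of different genes are not comparable. The groups separate without overlap for Socs3, Socs4 and Socs6 and overlap for the other 5 genes.

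Socs1 and Socs3 are the members that also carry a kinase inhibitory region and block JAK activity directly. Socs1 had log2 values of 7.14, 7.19 and 7.20 in the arrays labelled IL-33, against 7.08, 7.13 and 7.15 in those labelled PBS. The groups overlapped, since the lowest IL-33 array lay below the highest PBS array. Its difference was 0.058 ± 0.050 (log2, SE, n = 3 arrays each), and the 95% interval from -0.06 to 0.18 covers a level between 0.958 and 1.13 times that of the PBS arrays (adjusted p = 0.697, limma). Socs3 had values of 8.23, 8.24 and 8.13 in the arrays labelled IL-33, against 8.30, 8.42 and 8.34 in those labelled PBS. Every IL-33 array lay below every PBS array. Its difference of -0.16 ± 0.058 (log2, SE) had a 95% interval from -0.29 to -0.018 (adjusted p = 0.322, limma), and it did not pass once all genes were counted. On the tested probe set the interval, before adjustment, covers a Socs3 level between 0.815 and 0.987 times that of PBS. The second Socs3 probe set, described below, had a larger difference of -0.26, so these limits do not bound the gene.

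Cish and Socs2 are induced by STAT5 downstream of growth hormone, prolactin and the GM-CSF and IL-3 family, and restrain those receptors. Cish, the gene with the paired STAT motif above, had values of 5.69, 5.85 and 5.84 in the arrays labelled IL-33, against 5.85, 5.75 and 5.75 in those labelled PBS. The lowest and the highest of these 6 values were both IL-33 arrays. Its difference was 0.0125 ± 0.065 (log2, SE) with a 95% interval from -0.14 to 0.17 (adjusted p = 0.960, limma). Socs2 had values of 5.71, 5.63 and 5.59 in the arrays labelled IL-33, against 5.61, 5.75 and 5.63 in those labelled PBS, and the groups were interleaved. Its difference was -0.020 ± 0.062 (log2, SE), with a 95% interval from -0.17 to 0.13 (adjusted p = 0.928, limma). For both genes the sign was not stable: it turned to -0.0043 for Cish when each array was centred on its 75th percentile, and to 0.0076 for Socs2 after a further quantile normalization.

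Socs4 and Socs5 form a pair with long N-terminal regions and are linked to turnover of the epidermal growth factor receptor. Socs4 had values of 8.25, 8.25 and 8.26 in the arrays labelled IL-33, against 8.10, 8.16 and 8.23 in those labelled PBS. The IL-33 arrays agreed closely and lay above all PBS arrays, but the highest PBS array came near them. The difference was 0.090 ± 0.053 (log2, SE; adjusted p = 0.533, limma). Socs5 had values of 7.23, 7.07 and 7.17 in the arrays labelled IL-33, against 7.23, 7.17 and 7.20 in those labelled PBS. Its groups overlapped, with a difference of -0.043 ± 0.059 (log2, SE; adjusted p = 0.813, limma), and without IL-33 replicate 2, the lowest array, the difference was 0.0019.

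Socs6 and Socs7 form another pair, which binds insulin receptor substrates and related adaptors. Socs6 had values of 7.56, 7.67 and 7.68 in the arrays labelled IL-33, against 7.49, 7.35 and 7.46 in those labelled PBS. Every IL-33 array lay above every PBS array, and Socs6 had the largest difference and the smallest unadjusted p among the 8 members. The difference was 0.20 ± 0.063 (log2, SE), a level 1.15 times that of PBS with a 95% interval from 1.04 to 1.28 times (adjusted p = 0.238, limma). Over the 15 alternatives the adjusted p of Socs6 ranged from 0.0751, when genes with a mean below the median were left out, to 0.50, without IL-33 replicate 3, and its difference stayed between 0.16 and 0.24. Socs7 had values of 7.55, 7.61 and 7.45 in the arrays labelled IL-33, against 7.40, 7.45 and 7.52 in those labelled PBS. The groups overlapped, with a difference of 0.082 ± 0.063 (log2, SE; adjusted p = 0.655, limma).

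**Figure D2:**
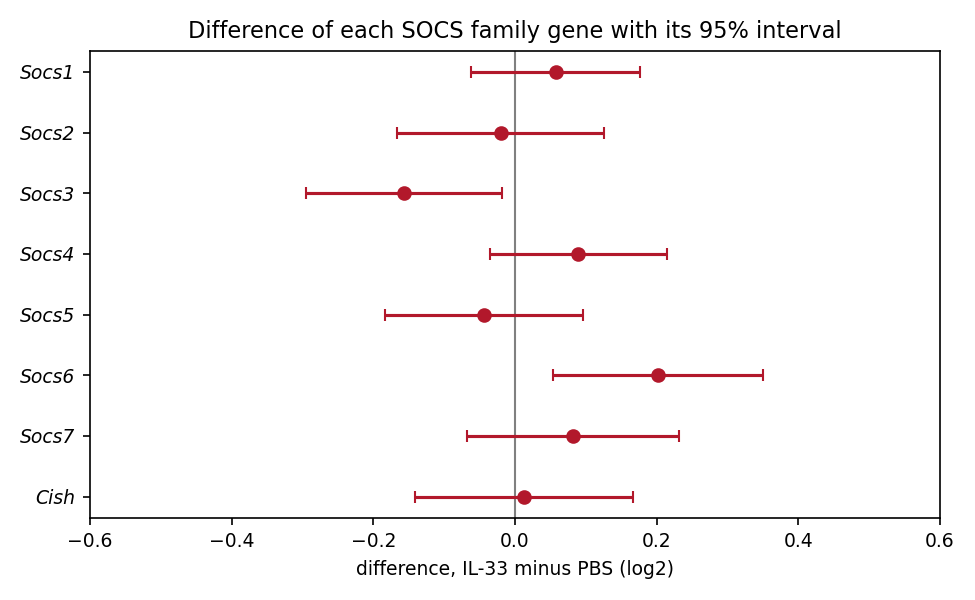
Difference of each SOCS family gene, IL-33 minus PBS on the log2 scale (horizontal axis), as points with 95% intervals from the limma fit (3 arrays in each group). The intervals of Socs3 and Socs6 lie to either side of 0 without reaching it before adjustment, and those of the other 6 genes cross 0.

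For the tested probe sets, the intervals give the size of change that these arrays leave room for. Among them the interval of Socs6 reached farthest from no difference, to 1.28 times the PBS level. That of Socs3 came next, to 0.815 times, an order that does not depend on the direction of the labels. The second probe sets of Socs2 and Socs3, described below, differed by 0.36 ± 0.16 and -0.26 ± 0.069 (log2, SE, fit over all probe sets). Both differences are larger in size than that of Socs6, so the order does not cover these probe sets. For Socs1 the upper limit was 1.13 times and for Cish 1.12 times. These limits are on the deposited RMA scale, which compresses differences of dim probe sets, and they rest on the spread of 3 arrays in each group. The standard errors of the members had a median of 0.061, beside 0.073 over all genes tested.

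The 3 members with a second probe set gave an internal comparison. The second probe set of Socs3 had values of 5.11, 5.29 and 5.25 in the arrays labelled IL-33, against 5.46, 5.44 and 5.53 in those labelled PBS. It therefore also placed every IL-33 array below every PBS array, with a difference of -0.26 ± 0.069 (log2, SE) and an adjusted p of 0.350 in the limma fit over all probe sets. Averaging both Socs3 probe sets gave -0.21 with an adjusted p of 0.163 (limma over all genes). The second probe set of Socs2 had values of 4.42, 4.91 and 4.81 in the arrays labelled IL-33, against 4.53, 4.40 and 4.12 in those labelled PBS. It overlapped between groups and went the other way from the tested probe set, with a difference of 0.36 ± 0.16 (log2, SE) and an adjusted p of 0.555 (limma, all probe sets). The mean of both Socs2 probe sets was 0.17 higher in the arrays labelled IL-33, so the sign for Socs2 depended on the probe set. The second probe set of Cish differed by -0.033 ± 0.095 (log2, SE; adjusted p = 0.940, limma over all probe sets).

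**Figure D3:**
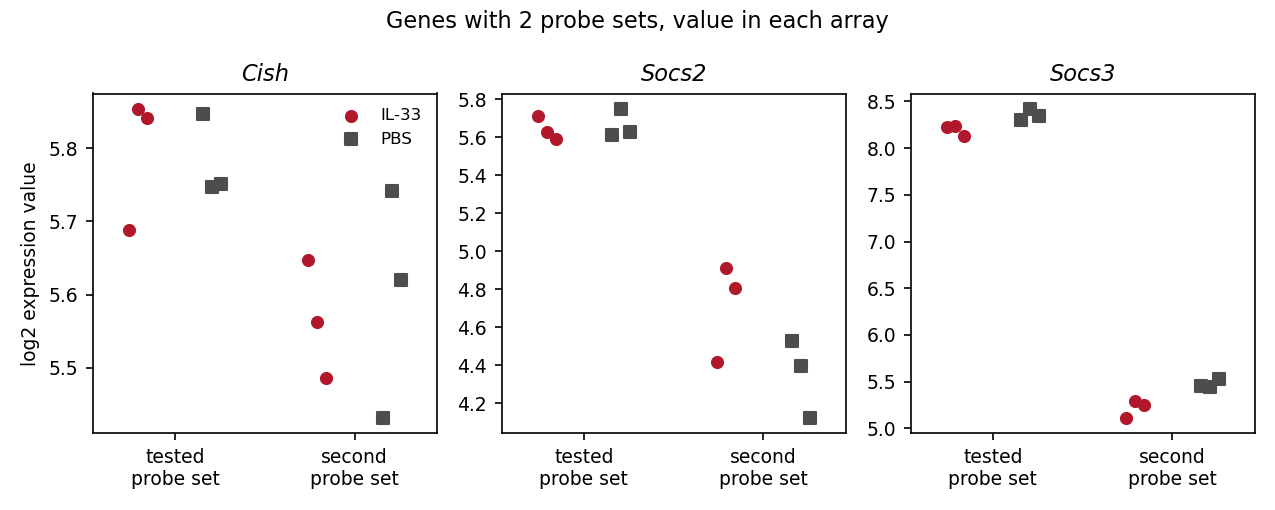
Log2 value in each array for the tested and the second probe set of Cish, Socs2 and Socs3, with IL-33 (red circles) left of PBS (grey squares) for each probe set. Both Socs3 probe sets have all IL-33 arrays below all PBS arrays, while the differences of the 2 Socs2 probe sets have opposite signs and overlapping groups.

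The surrounding pathway was read from 11 lists of JAK-STAT genes and SOCS partners, chosen with earlier results of these data known, so their counts are descriptions. Of 144 measured genes other than members 5 rose, 2 fell and 137 did not pass (limma), a share of 4.86% against 0.591% of all genes, and 4 genes stand in more than 1 list. Without IL-33 replicate 1 and without PBS replicate 2 the 7 calls became 2 and 2, and without IL-33 replicate 2, IL-33 replicate 3, PBS replicate 1 or PBS replicate 3 there were 0. With all probe sets tested in place of 1 per gene there were also 0. Leaving out 1 array could not turn the sign for the 7 genes, because the groups overlapped in none of them. Over all genes 20.3% likewise had groups that did not overlap.

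Among 20 ligands of JAK-coupled receptors 1 rose while 19 did not pass, and the median was -0.046. Over all genes 0.275% rose. At an unadjusted p under 0.05, 4 ligands passed, against 13.2% of all genes. The riser was Csf2, the gene of GM-CSF, a STAT5-activating growth factor that induces Cish in myeloid cells. It had values of 8.10, 7.97 and 7.79 in the arrays labelled IL-33, against 6.63, 7.02 and 6.74 in those labelled PBS, a log2 difference of 1.16 ± 0.12 (SE; adjusted p = 0.0160, limma). The mean of both its probe sets gave 0.87. The Csf2 call was lost in 4 of the 6 fits with 1 array left out. Csf3, the gene of G-CSF, whose signal SOCS3 restrains, differed by -0.38 on the log2 scale (adjusted p = 0.0593, limma). The difference was 0.29 for Ifnb1, the gene of interferon beta, 0.079 for Il6 and 0.074 for Il10, 2 cytokines that induce Socs3 through STAT3. Adjusted p for these 3 was 0.104, 0.726 and 0.801 (limma), and Il10 turned to -0.020 without PBS replicate 1. Ifnb1 was dim, with means of 4.16 in the arrays labelled IL-33 and 3.87 in those labelled PBS. Its mean ranked at percentile 17.8 of all genes, and both filters on dim genes left it out.

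Receptor chains moved in both directions, with 2 of 27 higher, 2 lower and 23 not passing, and a median of -0.0089. Over all genes 0.275% were higher and 0.316% lower. At an unadjusted p under 0.05, 9 chains passed, against 13.2% of all genes. Csf2rb2, the mouse IL-3-specific beta chain, had values of 8.23, 8.12 and 8.24 in the arrays labelled IL-33, against 9.06, 8.76 and 9.03 in those labelled PBS. That was a log2 difference of -0.75 ± 0.090 (SE; adjusted p = 0.0246, limma). Csf2rb, its close homologue and the beta chain of the GM-CSF receptor, differed by -0.43 on the log2 scale (adjusted p = 0.108, limma) and was chosen after its values were seen, and probes of 2 such similar transcripts may share signal. The receptor of IL-7, Il7r, had values of 11.21, 11.07 and 10.96 in the arrays labelled IL-33, against 11.64, 11.64 and 11.62 in those labelled PBS, a difference of -0.56 ± 0.072 (log2, SE; adjusted p = 0.0317, limma). The G-CSF receptor Csf3r, on which SOCS3 docks, had values of 7.97, 8.10 and 8.20 in the arrays labelled IL-33, against 7.31, 7.49 and 7.58 in those labelled PBS. It rose by 0.63 ± 0.090 (log2, SE; adjusted p = 0.0408, limma). Il15ra, the IL-15 receptor alpha chain, rose by 0.49 ± 0.072 (log2, SE; adjusted p = 0.0459, limma). With 1 array left out, the calls of Csf3r and Il15ra were lost in all 6 fits and those of Csf2rb2 and Il7r in 5. In each of these 4 genes that passed, all IL-33 arrays lay on one side of all PBS arrays, as in 20.3% of all genes. Genes that pass are picked for a large separation, so this adds nothing to the calls.

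**Figure D4:**
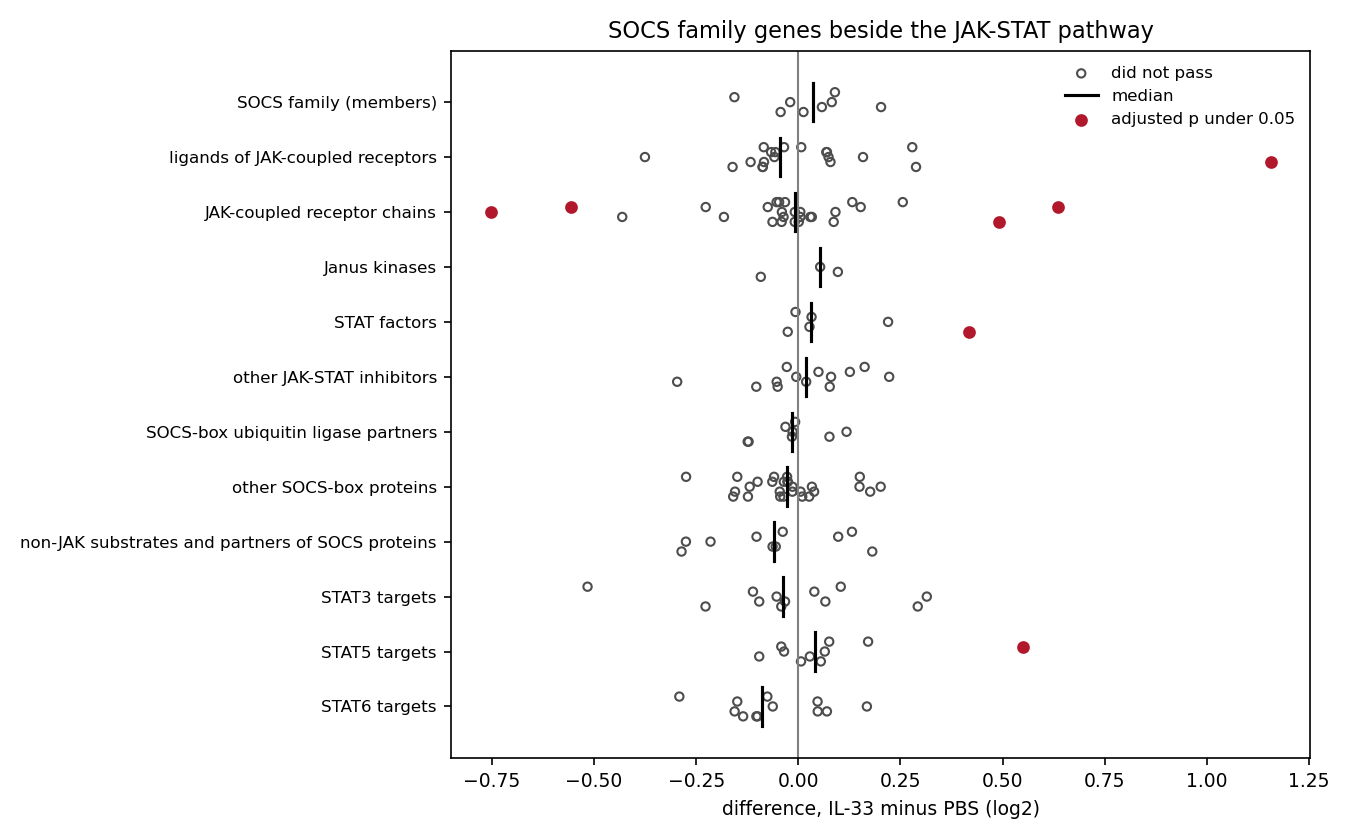
Difference of each measured gene, IL-33 minus PBS on the log2 scale, in the SOCS family (top row) and the 11 pathway lists. Filled red points passed an adjusted p of 0.05 (limma), open points did not, and black bars are list medians. The SOCS family row holds no filled point and lies between -0.16 and 0.20.

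Among the kinases and transcription factors of the pathway 1 gene passed. None of 3 measured Janus kinases passed, nor did any at an unadjusted p under 0.05, a cut that 13.2% of all genes passed. Jak1 differed by -0.092 and Jak2 by 0.097, with adjusted p of 0.512 and 0.533 (limma). Of 6 measured STAT genes 1 rose, against 0.275% of all genes, and 2 had an unadjusted p under 0.05. The riser was Stat2, a component of the interferon-activated complex and itself interferon-induced. Stat2 had values of 10.84, 10.82 and 10.69 in the arrays labelled IL-33, against 10.32, 10.38 and 10.40 in those labelled PBS, a difference of 0.42 ± 0.059 (log2, SE; adjusted p = 0.0408, limma). After a further quantile normalization its difference was 0.405 and its adjusted p 0.0538 (limma), so that call was lost. It was also lost with all probe sets tested and in each of the 6 fits with 1 array left out. Stat4 differed by 0.22 (adjusted p = 0.360, limma).

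Genes that STATs control were set beside the SOCS genes, which are STAT targets too. Of all genes tested 0.591% passed by limma, and 13.2% had an unadjusted p under 0.05. Of 10 STAT5 targets 1 rose, the cyclin gene Ccnd2 by 0.55 ± 0.059 (log2, SE; adjusted p = 0.0183, limma). That call was lost in each of the 6 fits with 1 array left out. The kinase gene Pim2 differed by 0.17 (adjusted p = 0.219, limma). At an unadjusted p under 0.05, 2 of the 10 passed. Cish and Socs2, also STAT5 targets, had 0.0125 and -0.020 on their tested probe sets. With the mean of all probe sets of each gene, the differences were -0.010 for Cish and 0.17 for Socs2. None of 12 STAT3 targets passed by limma, and 4 did at an unadjusted p under 0.05, with the transcription factor Cebpd at 0.31 and the IL-1 receptor antagonist Il1rn at -0.23 and adjusted p of 0.0986 and 0.101. None of 12 STAT6 targets passed, and 1 did unadjusted, with the chemokine Ccl2 at -0.15 and the mannose receptor Mrc1 at -0.29 and adjusted p of 0.272 and 0.400 (limma).

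Other brakes of the pathway and the machinery of the SOCS box held no gene that passed. Over all genes 0.591% passed by limma, so a short list is likely to hold none, and 13.2% had an unadjusted p under 0.05. Of 13 other inhibitors of JAK-STAT signalling none passed by limma, and 4 did at an unadjusted p under 0.05. Usp18, an interferon-induced inhibitor that acts at the interferon receptor, had values of 12.71, 12.78 and 12.79 in the arrays labelled IL-33, against 12.53, 12.55 and 12.52 in those labelled PBS. The groups did not overlap, as in 20.3% of all genes, and the difference was 0.22 ± 0.049 (log2, SE; adjusted p = 0.119, limma). The ubiquitin ligase Cblb differed by -0.30 (adjusted p = 0.157, limma).

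For the next lists too, the shares over all genes were 0.591% passing by limma and 13.2% with an unadjusted p under 0.05. Of 8 measured partners in the SOCS-box ubiquitin ligase none passed by limma, nor at an unadjusted p under 0.05. Their differences lay between -0.12 and 0.12. The extremes were the ubiquitin-like modifier Nedd8, which activates cullins, and the cullin Cul5 that SOCS boxes recruit, and Cul5 is named after its values were seen. Arih2, a ligase that works with cullin 5, differed by -0.12 (adjusted p = 0.449, limma). Of 27 other proteins with a SOCS box none passed, and 4 did at an unadjusted p under 0.05, with Asb6 at -0.27 and Spsb2, which targets inducible nitric oxide synthase for degradation, at 0.18, and adjusted p of 0.158 and 0.202 (limma). Spsb1, which has the same target, differed by 0.027, a sign that turned to -0.0076 with the mean of all its probe sets and to -0.0034 without IL-33 replicate 2. Of 10 further substrates and partners of SOCS proteins none passed and 2 did unadjusted, Irs2, an insulin receptor substrate, at -0.29 and Nos2, the inducible synthase, at -0.28, with adjusted p of 0.155 and 0.202 (limma). Nos2 passed with an adjusted p of 0.0138 (limma) under a trended and robust prior variance, where 1000 genes passed in place of 131. It passed under no other alternative, and with 1 array left out its adjusted p ran from 0.200 to 0.437 (limma).

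The genes whose pattern over the 6 arrays was most like that of the 2 members with the smallest p were looked up among 10459 genes that were not below the median of means. Closest to Socs6 were Il1rap, the accessory chain of IL-1 family receptors including that of IL-33, with Pearson r = 0.998, Rinl with 0.996 and Ppp1r9b with 0.993. Il1rap had values of 7.37, 7.56 and 7.54 in the arrays labelled IL-33, against 7.28, 7.07 and 7.24 in those labelled PBS, and like Socs6 it was lowest in PBS replicate 2. Its difference was 0.29 (adjusted p = 0.192, limma). Closest to Socs3 were Tmem86a with r = 0.991, Cdipt with 0.985 and Pde8b with 0.983. These correlations describe 6 arrays that share the 2 groups and 1 normalization, and the best of 10459 genes will be high in any case.

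**Figure D5:**
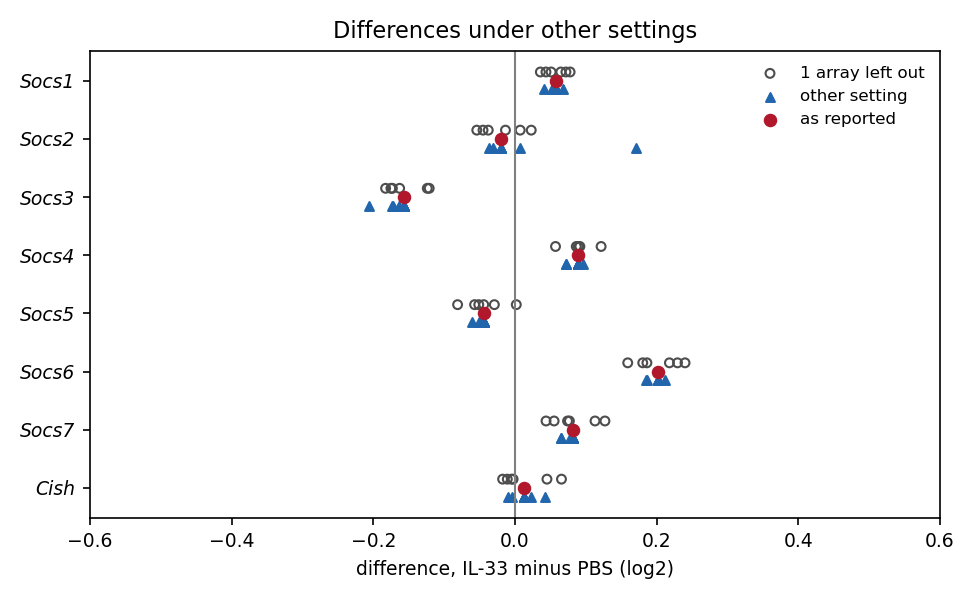
Difference of each SOCS family gene, IL-33 minus PBS on the log2 scale, as reported (red) and recomputed with 1 array left out (open circles) or under another setting (blue triangles). Socs3 stays below 0 and Socs1, Socs4, Socs6 and Socs7 stay above 0 throughout, while Cish, Socs2 and Socs5 cross 0. Several of the settings leave a difference unchanged by construction, so they could not turn its sign.

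Array medians over all probe sets lay between 5.31 and 5.33 in the arrays labelled IL-33 and between 5.34 and 5.36 in those labelled PBS. Of 10 monocyte and macrophage markers, with mean values between 5.16 and 12.88, 1 rose, the IgG receptor gene Fcgr1 by 0.49 (log2; adjusted p = 0.0448, limma), and 9 did not pass. The median of the 10 differences was 0.0026, with 5 above and 5 below 0. Over all genes 0.275% rose. Against 13.2% of all genes, 2 markers, Fcgr1 among them, had an unadjusted p under 0.05. The other one was Adgre1, the gene of the F4/80 antigen, chosen after its values were seen. Its difference was -0.29 (adjusted p = 0.114, limma), with no overlap between groups, as in 20.3% of all genes. Of 24 measured markers of lymphocytes, mast cells, fibroblasts, endothelium and epithelium, with mean values between 2.76 and 6.31, none passed by limma, nor at an unadjusted p under 0.05. With each array centred on its 75th percentile the 61 higher and 70 lower genes became 57 and 102, and no SOCS family gene passed in either direction.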

How the data were processed

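Biotin-labelled cDNA of amplified total RNA was read on 1 whole-transcript array per sample, per the labels' protocols. The table the authors deposited holds a log2 value per probe set, made with RMA per the submitters' processing notes, which give no version. RMA aligns the distributions of arrays, so a shift shared by most genes would not show. There are no detection calls. Levels of different probe sets were set against each other only to pick 1 probe set per gene by its higher mean, for the filters on dim genes and for ranks of means, and not as a result. Of 41345 probe sets, 23521 carried 1 symbol in the annotation used, 1814 several and the others none.

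The deposited values were fitted with limma 3.58.1 in R 4.3.3 (lmFit, eBayes, group as the only term, no filter) over 22180 genes, adjusted by Benjamini-Hochberg and called under 0.05. The fit was tested on simulated data. Replicate numbers 1 to 3 stand in both groups but were not taken as pairs. Alternatives were 2 filters on dim genes, 2 scalings, the mean of all probe sets, all probe sets, the replicate number as a block, another prior variance, array weights, and leaving out each array.

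The members and lists were chosen with earlier results of these data known. Named were all members, up to 4 genes per list that passed with the largest change, genes with the smallest p up to 2 where fewer passed, Csf2, Il6, Il10, Ifnb1, Spsb1 and Nos2, and the 3 officially named genes nearest in pattern to each of the 2 members with the smallest p. 1 further list, beside those described, is not reported here.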

Additional observations from a re-analysis of the deposited data

How the results depend on the processing

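No SOCS family gene passed under any of the 15 alternatives, 6 of which leave out an array. Socs1, Socs3, Socs4, Socs6 and Socs7 kept their sign throughout, but many alternatives could not turn it. The filters, all probe sets, the block and the prior variance leave the difference itself unchanged. The mean of all probe sets changes nothing for genes with 1 probe set. Leaving out 1 array cannot turn the sign of Socs3, Socs4 or Socs6, whose groups do not overlap. Signs turned where differences lay near 0. Socs2 (-0.020 as reported) was 0.0076 after a further quantile normalization and 0.17 with the mean of all probe sets, and -0.054 to 0.023 with 1 array left out. Cish (0.0125) was -0.0043 with each array centred on its 75th percentile, -0.010 with the mean of all probe sets, and -0.017 to 0.066 with 1 array left out. Socs5 (-0.043) ranged from -0.081 to 0.0019 with 1 array left out, Spsb1 from -0.0034 to 0.074, with -0.0076 for the mean of all probe sets, and Il10 from -0.020 to 0.14. The cause was not tested. Over all genes, 131 calls became 296 and 760 among genes at or above the 25th percentile and the median of means, 1000 with a trended and robust prior variance, 17 over all probe sets (controls could not be told apart and were kept), and 15 to 83 with 1 array left out. The 7 calls in the pathway lists became 19 at or above the median, 23 with the trended and robust prior, 0 over all probe sets and 0 to 2 with 1 array left out. With the replicate number as a block, 21 genes passed, 0 of them in the pathway lists. Same-numbered arrays correlated at 0.082, 0.088 and 0.023 in their deviations from the group means, and not every array correlated best with its own number. The filter at the median left Socs2, Il10 and Spsb1 out, and both filters left Ifnb1 out, so these have no value there. Array signal over background was not given, so which of the dim members lie near background was not tested.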
